A study of Mus musculus with 70 samples.

Results

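Gene expression was measured in the lungs of female B6C3F1 mice that received 1,2-dibromoethane by gavage, against mice that received the corn oil vehicle alone. Treated arrays were those whose titles carry the code of 1,2-dibromoethane, and their controls were the corn oil arrays of the same set of animals (set 2, the number that precedes the hyphen in an animal identifier, which the labels do not explain). These were 4 treated and 8 control mice, 12 of the 70 arrays of the series, with 1 Affymetrix mouse whole-genome array of the right lung lobe per mouse. The treated mice (2-52, 2-54, 2-56 and 2-58) had 62 mg/kg in 5 ml/kg corn oil on 5 days a week for 13 weeks, and the control mice (2-59, 2-60, 2-93, 2-95, 2-97, 2-99, 2-132 and 2-134) had the oil alone on the same schedule. All were adult females of 18 weeks at the end. For comparison, 4 mice had coumarin at 200 mg/kg and 4 had benzene at 100 mg/kg, in the same oil, on the same schedule and in the same set. A further 4 mice had 2,2-bis(bromomethyl)-1,3-propanediol, another brominated chemical, at 1250 ppm in feed on 7 days a week, with 4 feed controls of set 2. The study's design classes all of these chemicals as positive for lung tumours and sets each one against its vehicle, and the comparison asks which lung genes respond to 13 weeks of 1,2-dibromoethane, given at 1 dose.

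1,2-Dibromoethane is a volatile fumigant and a former additive of leaded petrol. The body clears it by oxidation, mainly through CYP2E1, to the reactive bromoacetaldehyde, which aldehyde dehydrogenases oxidise further. A second route joins it directly to glutathione through glutathione S-transferases, mainly of the theta class, and this conjugate forms an episulfonium ion that alkylates guanine in DNA. In the mouse lung, club cells of the small airways carry much of the cytochrome P450, while alveolar type I and type II cells, endothelium, fibroblasts and alveolar macrophages make up the gas-exchange region. Whole lobes were measured, so fewer cells of a type and less RNA per cell cannot be told apart. The defining lung markers were near the top of the log2 scale in every treated mouse, with 14.23 to 14.43 for Sftpc, the surfactant protein of alveolar type II cells, 14.15 to 14.33 for Scgb1a1 of club cells and 13.92 to 14.26 for Ager of alveolar type I cells.

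All values below are log2 probe set values, and a change is the treated mean minus the control mean, with its standard error (SE) or 95% interval. Of 12735 genes tested with limma, 584 passed a Benjamini-Hochberg adjusted p of 0.05, or 4.59%, with 265 higher (2.08%) and 319 lower (2.5%) in treated lungs. Of these, 96 higher genes (0.754%) and 66 lower genes (0.518%) had all 4 treated mice beyond all 8 controls. The median change of all genes was -0.02. The spread was estimated over all 70 arrays in 18 groups (median residual SD 0.193, against 0.233 with the 12 arrays alone). With the 12 arrays alone, 12 genes passed, while 1408 had an unadjusted p under 0.05. The 12 were Ces1g, Ces1f, Pnliprp1, Acsm1, Sptssb, Gpx2, Acox2, Fam81a, Dynlrb2 and Ghrl, which were higher, and Ttc7b and Vipr2, which were lower. RNA of mouse 2-56 stood apart. Its 3' minus 5' difference of Actb and Gapdh probe sets, a sign of RNA degradation, was 0.99, against 0.14 to 0.25 in the other treated mice and 0.16 to 0.34 in controls. RNA integrity numbers were 8.2, 7.6, 7.1 (mouse 2-56) and 8.8 in treated mice, against 7.9 to 8.8 in controls (means 7.92 and 8.45, exact two-sided permutation p = 0.103 over 495 arrangements). With the integrity number as a covariate 195 genes passed, in a fit limited to the 42 of 52 set 2 arrays with that number. Without mouse 2-54 the count was 366, and without 2-58 it was 358. With the 3' minus 5' difference as a covariate 663 passed. Counts or lost calls with the integrity covariate are given beside most lists below, and the part of RNA quality in the results was not tested beyond these 2 covariates.

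Ces1g, Ces1f, Pnliprp1, Acsm1, Sptssb and Acox2 were among the 15 largest rises with no overlap between treated mice and controls. The lists of fatty acid oxidation and of cholesterol and fatty acid synthesis hold none of these genes and had no member higher. Of 24 genes of fatty acid oxidation 0 rose and 2 fell, and of 25 genes of cholesterol and fatty acid synthesis 0 rose and 2 fell, each with a median change of -0.16. Ces1g, a carboxylesterase that cleaves drug and lipid esters, rose by 2.13 ± 0.28 (SE), or 4.38-fold, and its relative Ces1f rose by 1.82 ± 0.21, or 3.53-fold. Pnliprp1, a relative of pancreatic lipase, rose by 1.45 ± 0.17, or 2.72-fold. Acsm1, a mitochondrial acyl-CoA synthetase, rose by 1.39 ± 0.21, Sptssb, a small subunit of the enzyme that starts sphingolipid synthesis, by 1.26 ± 0.24, and Acox2, the peroxisomal oxidase of branched fatty acids and bile acid precursors, by 0.96 ± 0.12.

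Ces1g stood at 8.59, 7.62, 6.96 and 7.59 in treated mice 2-52, 2-54, 2-56 and 2-58, against a lowest value of 5.09, a median of 5.43 and a highest value of 6.46 in the 8 controls (adjusted p = 8.11e-07, limma). Ces1f stood at 8.58, 7.93, 8.09 and 8.06 in the same treated mice, against 5.74, 6.47 and 6.83 (lowest, median and highest) in controls (adjusted p = 6.11e-08). In both genes every treated mouse lay above every control, and the gap between the groups was wider for Ces1f. Pnliprp1 was 6.51, 6.53, 6.07 and 5.70 in treated mice, against 4.49, 4.79 and 5.03 in controls (adjusted p = 6.11e-08). Its control mean of 4.76 lay below the log2 4.98 that the filter asked of a gene's mean over all arrays. The fold change of Pnliprp1 is thus measured from a level near the floor. Acsm1 was 7.44, 7.48, 7.15 and 7.88 in treated mice, against 5.51, 6.10 and 6.50 in controls (adjusted p = 3.59e-05). Acox2 was 8.52, 8.07, 7.72 and 8.41 in treated mice, against 6.92, 7.20 and 7.70 in controls (adjusted p = 8.11e-07). Mouse 2-56 was the lowest treated mouse for Ces1g, Acsm1 and Acox2, and 2-58 was the lowest for Pnliprp1. Of 14 carboxylesterase and lipase genes tested only these 3 passed (Ces1g, Ces1f and Pnliprp1), and the median change of the 14 was -0.14. That was 21.4% higher, against 2.08% of all genes, and with the integrity covariate 3 were higher too. The close paralogs Ces1e and Ces1d, singled out after their values were seen, changed by 0.54 (adjusted p = 0.0548) and -0.06. Probes of the Ces1 genes share sequence, and cross-hybridisation between them was not tested.

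**Figure D1:**
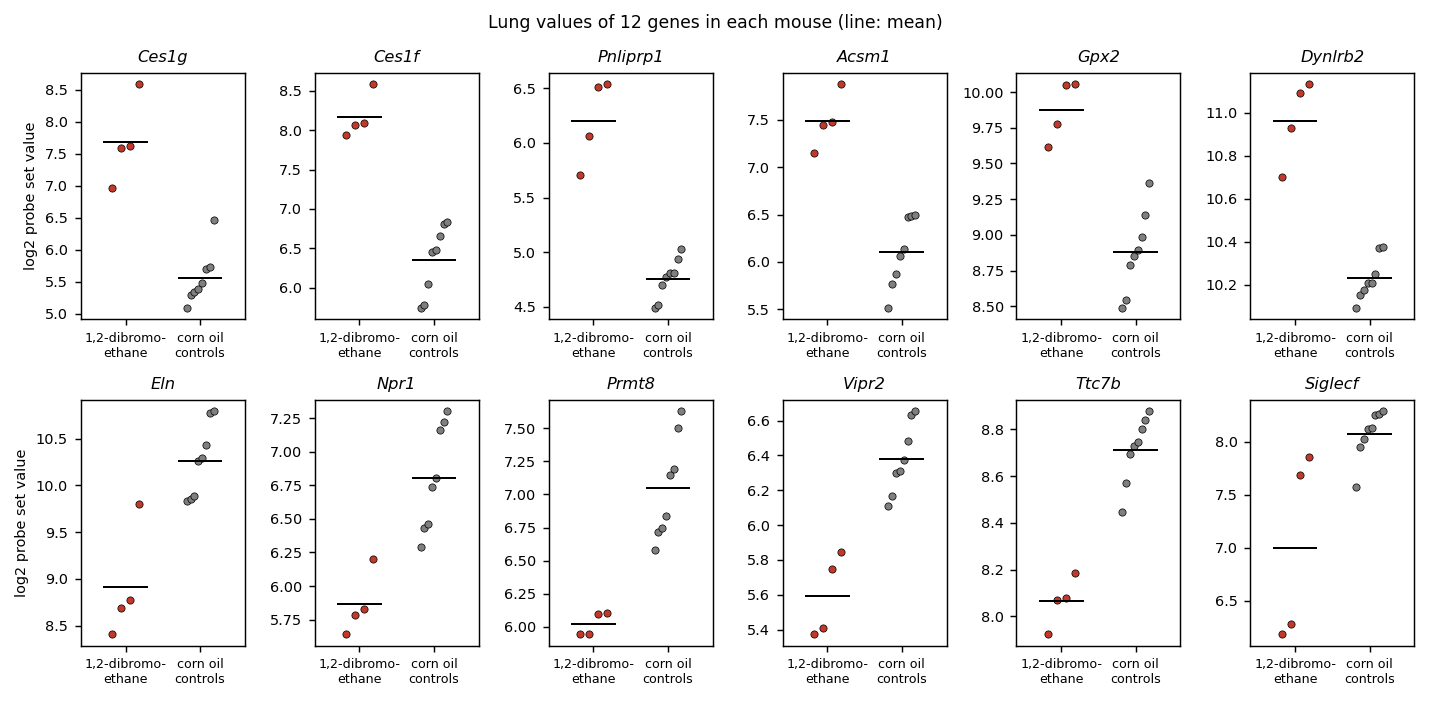
Log2 probe set values of 12 genes in each mouse, with 1,2-dibromoethane (4 mice, red) left of corn oil controls (8 mice, grey) and a line at each group mean. Treated values lie above all controls for Ces1g, Ces1f, Pnliprp1, Acsm1, Gpx2 and Dynlrb2 and below all controls for Eln, Npr1, Prmt8, Vipr2 and Ttc7b, while Siglecf overlaps.

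Glutathione enzymes and targets of NRF2, the transcription factor that answers electrophiles, were higher in treated lungs in part of each list. Of 29 NRF2 targets and glutathione synthesis genes 8 rose and 0 fell (27.6%, against 2.08% higher among all genes), with a median change of 0.21 against -0.02 for all genes. Of 20 glutathione S-transferases 6 rose and 0 fell (30% higher), with the same median of 0.21. With the integrity covariate 9 members of the NRF2 list were higher. Gpx2, a glutathione peroxidase of mucosal epithelium, was 10.05, 9.78, 9.62 and 10.05 in treated mice, against 8.49, 8.87 and 9.36 (lowest, median and highest) in controls, a rise of 0.99 ± 0.19 (adjusted p = 0.000816). Nqo1, which reduces quinones, was 7.51, 6.55, 6.32 and 6.51 in treated mice, against 5.41, 5.83 and 6.28 in controls, a rise of 0.89 ± 0.23 (adjusted p = 0.0151). Mouse 2-52 was nearly 1 unit above the other treated mice for Nqo1, and without it the change was 0.63 and did not pass (adjusted p = 0.108). Ephx1, the microsomal epoxide hydrolase, rose by 0.46 ± 0.07, Pgd of the NADPH-forming pentose phosphate pathway by 0.47 ± 0.08, the carbonyl reductase Cbr1 by 0.41 ± 0.08 and the alkenal reductase Ptgr1 by 0.47 ± 0.10. Other targets of the list, singled out after their values were seen, did not pass: Gclc changed by 0.40 and Gclm by 0.33 (the subunits of the rate-limiting enzyme of glutathione synthesis), Txnrd1 by 0.27, Hmox1 by 0.22 and Srxn1 by 0.00.

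Among the transferases, Gstm1 of the mu class was 12.54, 12.37, 12.06 and 12.35 in treated mice, against 11.72, 11.86 and 11.95 in controls, a rise of 0.49 ± 0.07 (adjusted p = 4.52e-06). Gsta2 of the alpha class was 8.85, 8.53, 8.39 and 8.51 in treated mice, against 7.34, 7.79 and 8.20 in controls, a rise of 0.81 ± 0.16 (adjusted p = 0.00125). Neither gene overlapped between the groups, and 2-52 was the highest and 2-56 the lowest treated mouse for both. Gsta4, which conjugates lipid aldehydes, rose by 0.48 ± 0.10, Gsto1 of the omega class by 0.60 ± 0.15 and the membrane-bound Mgst1 by 0.21 ± 0.06. The theta class genes, whose proteins conjugate 1,2-dibromoethane, did not pass: Gstt1 changed by -0.03 (95% interval -0.24 to 0.18) and Gstt2 by 0.11 (-0.13 to 0.34). Gsto1 did not pass without 2-54 or 2-58 (adjusted p 0.0524 to 0.0741), nor did Mgst1 without 2-58 (adjusted p 0.115). With the mean of all probe sets of a gene neither passed. Gsto1 then changed by 0.46 (adjusted p = 0.0757) and Mgst1 by 0.06 (adjusted p = 0.494). Without 2-58 the list had 3 members higher in place of 6, and with the integrity covariate 4.

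The promoters of Ces1g and of the NRF2-list member Gpx2 and the transferase Gsta2 are shown because these genes lead their groups, 300 bases each from 250 before to 50 after the start site, 5′ to 3′ on the gene's own strand, from RefSeq on build GRCm38.p6. They lie at chr8:93337160-93337459 (minus strand, Ces1g), chr12:76795505-76795804 (minus strand, Gpx2) and chr9:78347096-78347395 (minus strand, Gsta2). Capitals mark matches to 4 motifs searched on both strands: TGACNNNGC (the core of the antioxidant response element that NRF2 binds), GTTGCC (part of the X box of RFX factors), TTATGNAA (the D box bound by HLF and DBP) and CACGTG (the E box of the clock factors).
Ces1g: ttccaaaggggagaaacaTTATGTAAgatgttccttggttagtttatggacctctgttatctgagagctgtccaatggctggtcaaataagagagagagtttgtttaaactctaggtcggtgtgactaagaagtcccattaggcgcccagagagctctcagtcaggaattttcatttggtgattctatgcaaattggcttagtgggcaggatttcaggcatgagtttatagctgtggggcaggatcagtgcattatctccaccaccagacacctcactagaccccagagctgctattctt
Gpx2: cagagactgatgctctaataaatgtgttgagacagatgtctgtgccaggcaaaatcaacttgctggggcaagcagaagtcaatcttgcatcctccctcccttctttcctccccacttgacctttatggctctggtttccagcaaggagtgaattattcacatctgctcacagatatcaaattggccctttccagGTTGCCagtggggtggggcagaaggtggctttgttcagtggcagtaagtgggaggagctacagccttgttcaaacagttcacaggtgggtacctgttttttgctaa
Gsta2: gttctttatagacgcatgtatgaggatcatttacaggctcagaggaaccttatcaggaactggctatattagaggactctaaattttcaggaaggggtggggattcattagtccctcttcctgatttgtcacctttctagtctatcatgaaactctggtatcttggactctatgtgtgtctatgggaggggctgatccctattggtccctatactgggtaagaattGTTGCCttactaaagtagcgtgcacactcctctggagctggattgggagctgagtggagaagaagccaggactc
None of the 3 windows held TGACNNNGC, which 12.4% of 32851 promoters of this length hold. Ces1g held 1 D box, whose first base lay at -232 from the start site, a motif found in 3.38% of promoters. Gpx2 and Gsta2 each held 1 GTTGCC, at -56 and -24, which 12.5% of promoters hold. These are matches of letters, and no binding was measured.

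Genes listed for the oxidative route gave a mixed result. Of 18 genes listed for oxidation of 1,2-dibromoethane or its aldehyde, 5 rose and 1 fell (27.8% and 5.56%, against 2.08% and 2.5% of all genes), with a median change of -0.01. The list holds general oxidising enzymes too, and whether each acts on this chemical was not measured. In the fit with the integrity covariate 2 were higher in place of 5, and Aox1, Aldh1a7, Adh7 and Fmo5 did not pass (adjusted p 0.0719 to 0.149). Cyp2e1 was 7.17, 7.02, 7.78 and 8.77 in treated mice, against 6.75, 7.95 and 8.64 (lowest, median and highest) in controls. Its values spread over nearly 2 units in both groups, and its change of -0.15 had a standard error of 0.43. Aldh2, the mitochondrial aldehyde dehydrogenase, changed by 0.01 (-0.13 to 0.15) and Adh5, the glutathione-dependent formaldehyde dehydrogenase, by -0.13 (-0.29 to 0.03). Aldh1a1, a cytosolic aldehyde dehydrogenase, was 13.23, 13.18, 13.18 and 13.37 in treated mice, against 12.68, 12.97 and 13.18 in controls, a rise of 0.32 ± 0.07 (adjusted p = 0.00665), with the lowest treated mouse just above the highest control. The other rises were Aldh3a1 (0.64), Adh7 (0.62), Aox1 (0.46) and Aldh1a7 (0.41), all oxidising aldehydes or alcohols, and the fall was Fmo5, a flavin monooxygenase, by 0.57 on the log2 scale. Aldh3a1 did not pass without 2-52, 2-54 or 2-58 or without corn oil controls 2-59, 2-99 or 2-134 (adjusted p 0.0511 to 0.138), nor did Adh7 without 2-52, 2-54 or 2-58 or without corn oil controls 2-59, 2-60, 2-93, 2-132 or 2-134 (adjusted p 0.0524 to 0.298). Aox1 did not pass without 2-54 (adjusted p 0.0721), nor did Aldh1a7 without 2-52, 2-54 or 2-58 or without corn oil controls 2-59, 2-93 or 2-132 (adjusted p 0.0601 to 0.11). Fmo5 did not pass without 2-54 or 2-58 (adjusted p 0.0647 to 0.0842).

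**Figure D2:**
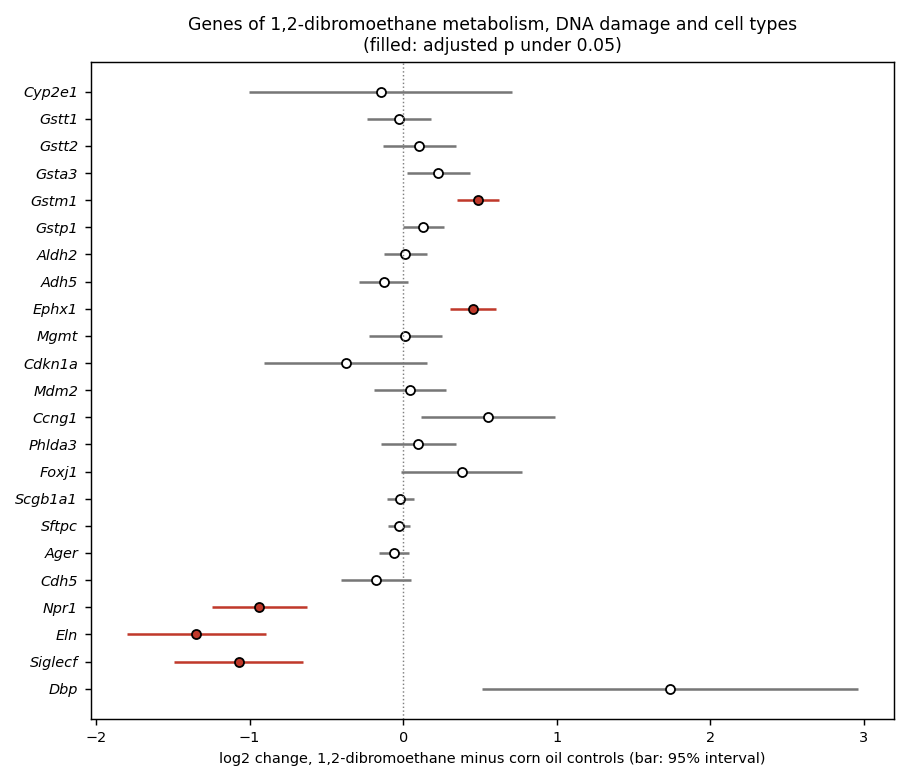
Log2 changes (1,2-dibromoethane minus corn oil controls, horizontal axis) of 23 genes of 1,2-dibromoethane metabolism, DNA damage and cell types with 95% intervals as bars, filled where the adjusted p was under 0.05. Gstm1 and Ephx1 were higher and Npr1, Eln and Siglecf lower, while the intervals of Cyp2e1 and of Dbp (0.52 to 2.96) were the widest of the 23.

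Lists of genes that answer DNA damage had 1 or 2 members past the test. Of 29 p53 targets 2 rose and 0 fell, of 41 DNA repair genes 1 rose and 0 fell, and of 30 cell cycle genes 1 rose and 0 fell, with median changes of 0.06, -0.01 and 0.03. These were 6.9%, 2.44% and 3.33% higher, against 2.08% of all genes, and the p53 count was 0 with the RNA integrity number as a covariate. The p53 targets that passed were Ddit4l, an inhibitor of mTOR signalling (0.52), and Dglucy (0.42). The repair gene was Fanca of the Fanconi anaemia crosslink repair complex (0.41), and the cell cycle gene was the cyclin Ccnd1 (0.35). Ddit4l did not pass without 2-56 (adjusted p 0.0578), nor did Dglucy without 2-52 or 2-54 (adjusted p 0.0626 to 0.0861). Fanca did not pass without 2-54 or 2-58 or without corn oil control 2-95 (adjusted p 0.0523 to 0.144), nor did Ccnd1 without 2-56 (adjusted p 0.113). Ccnd1 did not pass with the integrity covariate either (adjusted p 0.0767). Cdkn1a, the p53-induced inhibitor of cyclin-dependent kinases, was 10.78, 10.10, 10.19 and 9.28 in treated mice, against 9.36, 10.57 and 11.25 in controls, a change of -0.37 (-0.91 to 0.16). Ccng1, another p53 target, was 8.96, 9.21, 9.36 and 9.30 in treated mice, against 7.80, 8.55 and 9.44 in controls, a change of 0.55 (0.12 to 0.99, adjusted p = 0.126). All 4 treated mice had Ccng1 above the control median, but the highest control was above all of them. Mdm2, the p53 ubiquitin ligase, changed by 0.05 (-0.19 to 0.28), Phlda3 by 0.10 (-0.14 to 0.34) and Mgmt, which removes alkyl groups from guanine, by 0.01 (-0.22 to 0.25).

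Part of the markers of ciliated airway cells were higher in treated lungs. Of 39 such genes 11 rose and 0 fell (28.2%, against 2.08% higher among all genes), all 39 changes were positive, and the median was 0.38. Dynlrb2, a dynein light chain of the cilium, was 11.09, 10.93, 10.70 and 11.13 in treated mice, against 10.09, 10.21 and 10.38 (lowest, median and highest) in controls, a rise of 0.73 ± 0.14 (adjusted p = 0.000828). Rsph1, a radial spoke protein, was 9.44, 9.28, 9.23 and 9.48 in treated mice, against 8.39, 8.68 and 9.06 in controls, a rise of 0.64 ± 0.13 (adjusted p = 0.00271). For both genes, and for Tekt4 of the ciliary microtubules (0.59) and Ccdc40 (0.59), no treated mouse overlapped a control. Cfap126 rose by 0.56. Cfap54, a protein of the central apparatus that is not on the list, rose by 0.96 ± 0.25. Cfap54 did not pass without 2-54 or 2-58 (adjusted p 0.0537 to 0.0729). Foxj1, the master regulator of motile cilia, was 9.69, 9.38, 9.03 and 9.02 in treated mice, against 8.23, 8.86 and 9.64 in controls, and its change of 0.38 (-0.02 to 0.78) did not pass. The mean over the 39 markers was 7.86, 7.77, 7.49 and 8.00 in treated mice, against 7.08 to 7.66 in controls, so that mouse 2-56, with the high 3' minus 5' difference, lay among the controls and the other 3 above them. In place of 11, the count was 7 without 2-52, 5 without 2-54 or 2-58 and 16 without 2-56, and it was 6 with the RNA integrity number as a covariate, where Ccdc40 and Cfap54 did not pass.

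The promoter of Dynlrb2, the ciliated cell marker that passed under every alternative tried, holds 1 GTTGCC (capitals), with its first base at -51 from the start site. The window is chr8:116504765-116505064, plus strand, GRCm38.p6, from RefSeq.
Dynlrb2: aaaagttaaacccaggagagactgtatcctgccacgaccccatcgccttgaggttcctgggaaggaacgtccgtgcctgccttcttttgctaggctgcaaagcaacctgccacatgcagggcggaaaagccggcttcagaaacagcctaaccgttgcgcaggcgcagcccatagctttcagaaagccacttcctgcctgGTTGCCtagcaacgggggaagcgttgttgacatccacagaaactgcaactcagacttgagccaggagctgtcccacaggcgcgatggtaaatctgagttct
The letters match part of the X box that RFX factors of ciliated cells bind, and 12.5% of all promoters hold them.

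Secretory cells of the airways moved less evenly. Of 22 club and airway secretory markers 6 rose and 0 fell (27.3% higher, against 2.08% of all genes), with a median change of 0.37. Hp, haptoglobin, was 13.43, 13.56, 13.56 and 13.50 in treated mice, against 13.01, 13.25 and 13.34 in controls, a rise of 0.28 ± 0.06 (adjusted p = 0.00665), and Aldh1a1 of the oxidation list is the other member whose call held without any 1 mouse. Gabrp, a GABA receptor subunit of airway epithelium, rose by 0.78, Cckar, the cholecystokinin receptor, by 0.53 and the gel-forming mucin Muc5ac by 0.36. Aldh1a7, given above, is the remaining member. Gabrp did not pass without 2-58 (adjusted p 0.0717), nor did Cckar without 2-52, 2-56 or 2-58 or without corn oil control 2-60 (adjusted p 0.0539 to 0.131). Muc5ac did not pass without 2-52 or 2-58 or without corn oil control 2-59 (adjusted p 0.0511 to 0.111). Scgb1a1, the main club cell secretoglobin, changed by -0.02 (-0.10 to 0.07), at values near the top of the scale. The mean over the 22 markers was 9.96, 10.31, 9.75 and 10.91 in treated mice, against 8.88 to 10.50 in controls, so that only 2-58 exceeded all controls. Without 2-58 the list had 2 members higher in place of 6, and 4 with the integrity covariate.

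Elastin and part of the matrix and vascular genes were lower in treated lungs. Eln, elastin, was 8.69, 8.40, 9.80 and 8.77 in treated mice, against 9.83, 10.27 and 10.80 (lowest, median and highest) in controls, a change of -1.35 ± 0.22, or 2.54-fold lower (adjusted p = 0.000135). Mouse 2-56 lay just below the lowest control and the other 3 were more than 1 unit below it. In a second probe set of Eln the change was -0.94 ± 0.19 (adjusted p = 0.00187). Of 19 elastic fibre genes 3 fell and 0 rose, against 2.5% lower among all genes, with a median of -0.17. The other members were Loxl1, which crosslinks elastin (-0.59), and Fbln5, which assembles elastic fibres (-0.38). Loxl1 did not pass without 2-54 (adjusted p 0.168), nor did Fbln5 without 2-54 (adjusted p 0.184). Only 1 of the 19 passed with the RNA integrity number as a covariate, and Loxl1 (adjusted p = 0.12) and Fbln5 (adjusted p = 0.152) did not. Another probe set of Loxl1 changed by -0.20 (adjusted p = 0.476).

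Of 28 collagens and collagen processing genes 3 fell and 0 rose (10.7% lower, against 2.5% of all genes), with a median of -0.25. Col4a5, a basement membrane collagen chain, was 9.86, 8.89, 9.36 and 9.86 in treated mice, against 9.92, 10.15 and 10.41 in controls, a change of -0.63 ± 0.12 (adjusted p = 0.000816). Sparc, a collagen-binding matricellular protein, fell by 0.29 ± 0.06, but its other probe sets changed by -0.25 (adjusted p = 0.0912) and 0.26. Col4a2, another such chain, fell by 0.38. Col4a2 did not pass without 2-52 or 2-58 or without corn oil controls 2-93, 2-97 or 2-132 (adjusted p 0.0504 to 0.128), nor with the integrity covariate (adjusted p 0.0816). Fibrillar collagens, singled out after their values were seen, did not pass, with -0.24 for Col1a1 and -0.41 for Col3a1.

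Npr1, the guanylyl cyclase receptor of atrial natriuretic peptide, was 5.83, 5.64, 6.20 and 5.78 in treated mice, against 6.29, 6.77 and 7.31 in controls, a change of -0.94 ± 0.15 (adjusted p = 0.000134). Npr2, the receptor of C-type natriuretic peptide, was 9.22, 8.78, 9.20 and 9.07 in treated mice, against 9.22, 9.46 and 9.62 in controls, and fell by 0.38 ± 0.09. Both receptors showed no overlap, although 2-52 lay within 0.01 of the lowest control for Npr2. Npr2 did not pass without 2-54 (adjusted p 0.0865) or with the integrity covariate (adjusted p 0.058). These were the 2 of 12 natriuretic peptide and nitric oxide genes that passed, or 16.7% lower against 2.5% of all genes. The clearance receptor Npr3, singled out after its values were seen, varied from 7.45 to 10.68 in treated mice and changed by -0.19.

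Of 34 endothelial markers 4 fell and 0 rose (11.8% lower, against 2.5% of all genes), with a median of -0.21. Car4, the carbonic anhydrase of lung capillaries, was 11.37, 10.82, 10.90 and 11.06 in treated mice, against 11.28, 11.51 and 11.81 in controls, and fell by 0.47 ± 0.10 (adjusted p = 0.0052). Tmem100, an endothelial target of BMP signalling, was 11.28, 11.19, 11.35 and 11.18 in treated mice, against 11.40, 11.67 and 11.77 in controls, and fell by 0.38 ± 0.09 (adjusted p = 0.00548). Acvrl1, the BMP receptor ALK1, fell by 0.45 and Apln, the ligand of the apelin receptor, by 0.48. Acvrl1 did not pass without 2-56 or 2-58 (adjusted p 0.0522 to 0.125), nor did Apln without 2-56 or 2-58 (adjusted p 0.0806 to 0.0872). Cdh5, the cadherin of endothelial junctions, changed by -0.18 (-0.40 to 0.05). The mean over the 34 markers was 10.00, 10.12, 10.06 and 9.92 in treated mice, against 10.12 to 10.26 in controls, and every treated mouse lay below the lowest control, 2-54 only just. With the RNA integrity number as a covariate 1 of the 34 passed in place of 4, and Car4, Acvrl1 and Apln did not. Among fibroblast, smooth muscle and pericyte markers 3 of 31 fell (Npnt by 0.43, Cox4i2 by 0.65 and Tcf21 by 0.35 on the log2 scale) and 0 rose, or 9.68% lower against 2.5% of all genes. With the integrity covariate 0 of the 31 were lower (adjusted p 0.051 for Npnt, 0.142 for Cox4i2 and 0.138 for Tcf21). Npnt did not pass without 2-54 (adjusted p 0.0616), nor did Cox4i2 without 2-58 (adjusted p 0.0721). Tcf21 did not pass without 2-54, 2-56 or 2-58 or without corn oil controls 2-59 or 2-132 (adjusted p 0.0552 to 0.109). With the mean of all probe sets of a gene, Tcf21 changed by -0.13 (adjusted p = 0.551) and Tmem100 by -0.31 (adjusted p = 0.106).

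**Figure D3:**
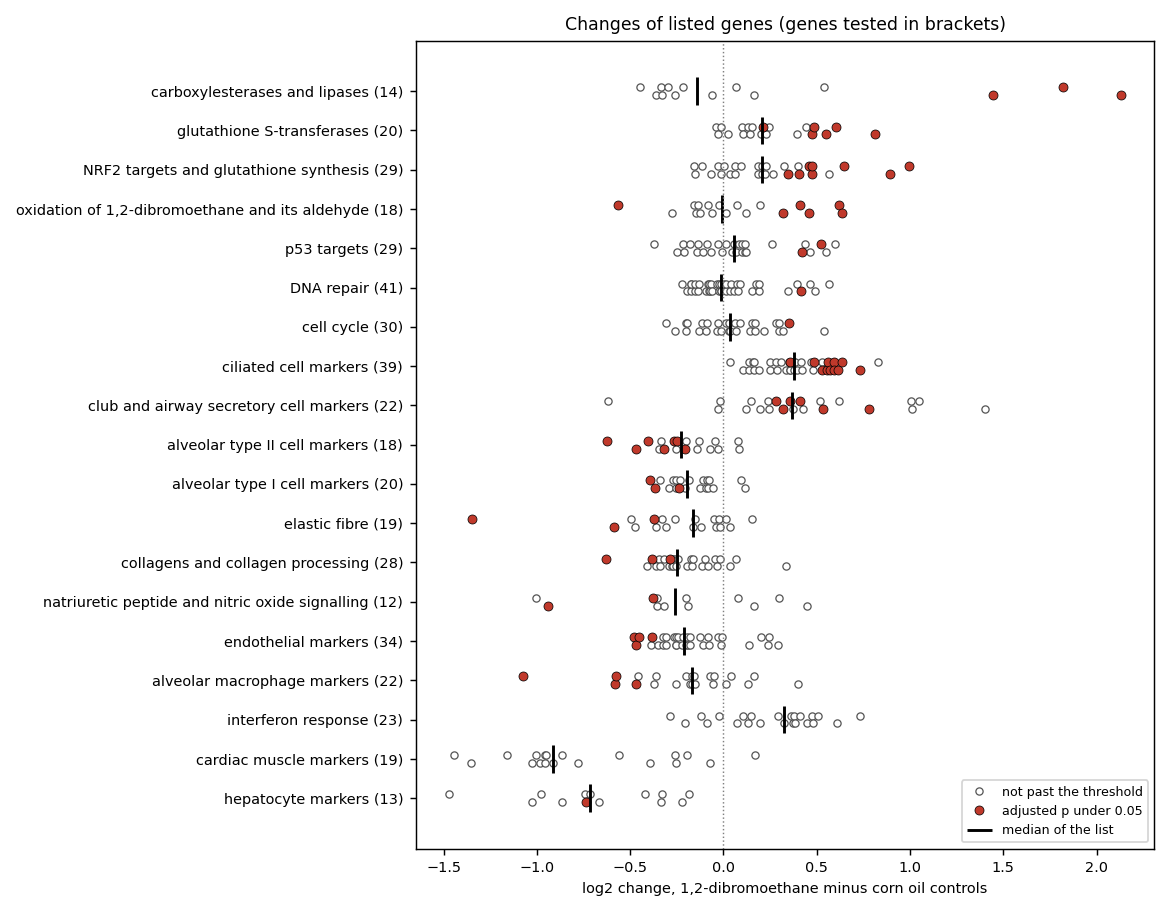
Log2 changes (horizontal axis, 1,2-dibromoethane minus corn oil controls) of each gene of 19 lists, with filled points for genes with an adjusted p under 0.05, open points for the others and a bar at the list's median. All 39 ciliated cell markers lie right of 0, while cardiac and hepatocyte markers lie mostly left of it with 0 and 1 genes past the threshold.

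Part of the alveolar epithelial markers were lower. Of 18 alveolar type II markers 7 fell and 0 rose (38.9%, against 2.5% lower among all genes), with a median of -0.23. Napsa, the aspartic protease that processes surfactant protein B, was 11.65, 11.28, 10.83 and 11.82 in treated mice, against 11.67, 11.84 and 12.06 in controls, and fell by 0.47 ± 0.10 (adjusted p = 0.00257). Etv5, a transcription factor of type II cells, fell by 0.62, Cd74, the invariant chain, by 0.32, the phosphate carrier Slc34a2 by 0.26 and the surfactant protein Sftpa1 by 0.21 on the log2 scale. Napsa did not pass without 2-56 (adjusted p 0.0576), nor did Etv5 without 2-52 or 2-54 (adjusted p 0.0544 to 0.157). Cd74 did not pass without 2-52 or 2-56 (adjusted p 0.0885 to 0.219), nor did Slc34a2 without 2-52 or 2-54 (adjusted p 0.108 to 0.215). Sftpa1 did not pass without 2-54 or 2-56 (adjusted p 0.145 to 0.187). Sftpc, near the top of the scale, was 14.31, 14.23, 14.30 and 14.43 in treated mice, against 14.31, 14.32 and 14.41 in controls, a change of -0.03 (-0.10 to 0.05). The mean over the 18 markers was 11.81, 11.64, 11.78 and 12.04 in treated mice, against 11.93 to 12.13 in controls, so that 3 treated mice lay below all controls and 2-58 among them. With the RNA integrity number as a covariate 0 of the 18 passed, and without 2-54 there were 2.

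Alveolar type I markers had 3 of 20 lower and 0 higher, namely Emp2, a membrane protein of these cells (-0.24), Vegfa (-0.36) and Gprc5a (-0.39). That was 15% of the list, against 2.5% lower among all genes. The count was 0 without 2-54, whose Gprc5a was 11.51, against 12.26 to 12.32 in the other treated mice and 12.14 to 12.79 in controls, and it was 0 with the integrity covariate. Emp2 did not pass without 2-54 (adjusted p 0.155), nor did Vegfa without 2-54 or 2-56 (adjusted p 0.0999 to 0.112). Gprc5a did not pass without 2-54 or without corn oil controls 2-59, 2-93, 2-95, 2-97 or 2-99 (adjusted p 0.0512 to 0.381). Ager, the receptor that marks type I cells, changed by -0.06 (-0.16 to 0.04), also at values near the top of the scale. The mean over the 20 markers was 11.38, 10.92, 11.36 and 11.33 in treated mice, against 11.20 to 11.58 in controls, where 2-54 alone lay outside the control range.

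A few transcripts on the alveolar macrophage list were lower in treated lungs. Siglecf, a sialic acid receptor of alveolar macrophages and eosinophils, was 7.69, 6.18, 6.28 and 7.86 in treated mice, against 7.57, 8.12 and 8.29 (lowest, median and highest) in controls, a change of -1.07 ± 0.21 (adjusted p = 0.00125). The 4 treated mice fell into a low pair (2-54 and 2-56) and a pair at the lower end of the controls (2-52 and 2-58). Itgax, the integrin CD11c, was 9.08, 9.02, 8.40 and 9.18 in treated mice, against 9.22, 9.54 and 9.66 in controls, and fell by 0.58 ± 0.13 (adjusted p = 0.00529), with no overlap. Krt79, a keratin on the list, fell by 0.57 on the log2 scale, and Car4, listed here too, is given above. In all 4 of 22 alveolar macrophage markers fell and 0 rose (18.2%, against 2.5% lower among all genes), with a median of -0.17. The count was 2 without 2-56 and 1 with the RNA integrity number as a covariate, where Itgax, Krt79 and Car4 did not pass. Marco, a scavenger receptor of the same cells singled out after its values were seen, changed by 0.04. The mean over the 22 markers was 9.15, 8.91, 8.60 and 9.37 in treated mice, against 9.02 to 9.37 in controls. Of 22 markers of interstitial macrophages, monocytes and dendritic cells 2 fell, the C-type lectins Mgl2 (-0.82, adjusted p = 0.00223) and Cd209a (-0.73), and neither passed with the integrity covariate. That was 9.09% of this list, against 2.5% lower among all genes. Itgax did not pass without 2-56 (adjusted p 0.067), nor did Krt79 without 2-54 or 2-56 (adjusted p 0.0725 to 0.0799). Cd209a did not pass without 2-56 (adjusted p 0.125).

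Inflammatory genes set mouse 2-54 apart. The mean over 15 neutrophil markers was 6.88, 10.01, 6.85 and 7.32 in treated mice 2-52, 2-54, 2-56 and 2-58, against 6.83 to 8.35 in controls, and that of 23 interferon response genes was 7.40, 8.68, 7.56 and 7.67, against 7.34 to 7.89. Only 2-54 exceeded the controls in these lists, in which 0 genes passed, and it was also the highest treated mouse for cytokines and chemokines (7.90, against 7.05 to 7.64 in controls). Mzb1, of plasma cells, was 7.27, 9.37, 8.40 and 7.53 in treated mice, against 7.05 to 7.68 in controls, a rise of 0.72. Mzb1 did not pass without 2-54 or 2-56 or without corn oil controls 2-95 or 2-97 (adjusted p 0.0629 to 0.424), nor with the integrity covariate (adjusted p 0.334). T and NK cell markers had 0 of 22 past the threshold. Cardiac muscle and hepatocyte markers varied as well: the mean over 19 cardiac muscle markers was 6.74, 7.41, 6.66 and 7.82 in treated mice, against 7.02 to 8.64 in controls, with 0 genes called and a median change of -0.91, and of 13 hepatocyte markers 1 fell (Itih4, by 0.74). That was 7.69% of the hepatocyte list, against 2.5% lower among all genes. Itih4 did not pass with the integrity covariate (adjusted p 0.0745). Calls that depend on mouse 2-54 are marked as such above, and the part of its inflammatory genes in them was not tested.

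**Figure D4:**
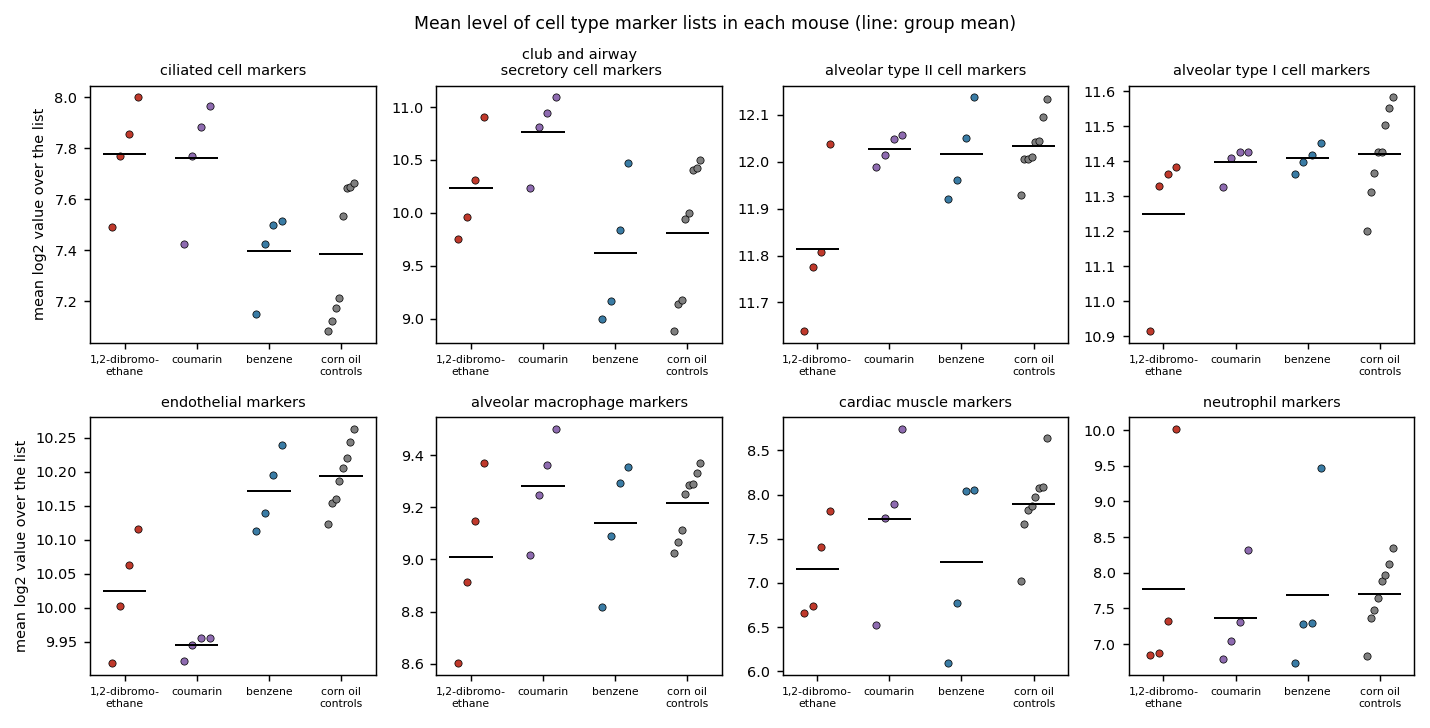
Mean log2 value over the genes of 8 marker lists in each mouse of the 1,2-dibromoethane, coumarin, benzene and corn oil groups (4, 4, 4 and 8 mice, left to right), with a line at the group mean. Endothelial markers lie at 9.92 to 10.12 with 1,2-dibromoethane and at 10.12 to 10.26 in corn oil controls, and 1 treated mouse stands far above the rest for neutrophil markers.

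Some clock output genes differed between the groups. Hlf, a D-box factor driven by the circadian clock, was 6.46, 6.75, 6.34 and 6.86 in treated mice, against 5.42, 5.66 and 6.25 in controls, a rise of 0.86 ± 0.21 (adjusted p = 0.0113). Per3, a period gene, was 8.02, 8.54, 7.79 and 8.11 in treated mice, against 6.59, 7.11 and 7.95 in controls, a rise of 0.93 (adjusted p = 0.0452). Usp2, a deubiquitinase in the same phase, rose by 0.39. Dbp, the D-box factor with the widest daily swing, was 8.92, 9.31, 8.31 and 9.79 in treated mice, against 5.13, 7.65 and 8.94 in controls, and its change of 1.74 (0.52 to 2.96) did not pass (adjusted p = 0.0839). Arntl, the BMAL1 activator whose phase is opposite, was 7.17, 6.53, 7.91 and 6.37 in treated mice, against 7.56, 8.20 and 8.44 in controls, and fell by 1.14 (adjusted p = 0.0294), while its other probe set changed by 0.03. Hlf did not pass without 2-58 (adjusted p 0.0537), nor did Per3 without 2-52, 2-54 or 2-58 or without corn oil controls 2-59, 2-60, 2-93, 2-95 or 2-132 (adjusted p 0.0508 to 0.158). Usp2 did not pass without 2-52, 2-54 or 2-56 or without corn oil controls 2-60, 2-95, 2-132 or 2-134 (adjusted p 0.0504 to 0.122), nor did Arntl without 2-54 or 2-58 (adjusted p 0.114 to 0.14). In total 3 of 12 genes in phase with Dbp rose, with a median of 0.40, and 1 of 5 in phase with Arntl fell. These were 25% higher and 20% lower, against 2.08% and 2.5% of all genes. The mean over the 12 genes was 8.53 with 1,2-dibromoethane, 8.70 with coumarin and 8.51 with benzene, against 8.06 in controls. For the 5 genes it was 7.21, 6.92 and 7.39, against 7.56. In the direct contrasts with coumarin and with benzene 0 of the 12 and 0 of the 5 passed, so these shifts are not particular to 1,2-dibromoethane. With the integrity covariate Per3 did not pass (adjusted p = 0.122). The labels used here do not give the hour at which the lungs were taken, so hour and treatment cannot be told apart. Of 18 glucocorticoid-induced genes 3 fell and 0 rose (16.7% lower, against 2.5% of all genes), with a median of -0.45. They were Sgk1, a kinase (-0.50 ± 0.11, adjusted p = 0.00574), Angptl4, an inhibitor of lipoprotein lipase (-0.82), and the phosphatase Dusp1 (-0.62). The mean over the 18 genes was 9.79 with 1,2-dibromoethane, 9.98 with coumarin and 9.81 with benzene, against 10.12 in controls. In the direct contrast with coumarin 0 of the 18 passed, and in that with benzene 1 was lower. Angptl4 did not pass without 2-54 or 2-58 (adjusted p 0.062 to 0.127), nor did Dusp1 without 2-54, 2-56 or 2-58 or without corn oil controls 2-59, 2-60, 2-93, 2-95 or 2-132 (adjusted p 0.0613 to 0.238) or with the integrity covariate.

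The promoter of Per3 is given because it holds 2 copies of the D box that Ces1g holds once, at -205 and -158, and 1 GTTGCC at -100 (capitals). The window is chr4:151044616-151044915, minus strand, GRCm38.p6, from RefSeq.
Per3: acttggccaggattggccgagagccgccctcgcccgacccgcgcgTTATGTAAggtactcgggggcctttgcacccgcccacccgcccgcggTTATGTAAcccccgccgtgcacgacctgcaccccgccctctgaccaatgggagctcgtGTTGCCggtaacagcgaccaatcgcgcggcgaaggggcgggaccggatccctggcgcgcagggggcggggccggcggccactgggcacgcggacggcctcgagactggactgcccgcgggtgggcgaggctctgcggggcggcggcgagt
An E box (CACGTG), found in 7.15% of promoters, was in none of the 5 windows shown, which says nothing of the rest of these genes. The promoter of Vipr2 was searched in the same way, held 0 matches to these motifs and is not shown. Every window shown holds a match, so the windows do not tell how usual such matches are among the genes that passed.

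Further genes outside these lists passed with no overlap between the groups. Among the rises were Atp2b2, a calcium pump of the plasma membrane (1.01 ± 0.20, adjusted p = 0.00223), Fam81a (0.96 ± 0.16, adjusted p = 0.000135), Kcnmb2, a subunit of calcium-activated potassium channels (0.89), Dsg2, a desmosomal cadherin (0.86), and Kif21a, a kinesin (0.85). Fam81a was 8.00, 7.64, 8.11 and 7.90 in treated mice, against 6.78, 6.91 and 7.30 in controls. Kif21a stood at 8.03 in 2-58, against 7.61 to 7.63 in the other treated mice. Among the falls, Prmt8, an arginine methyltransferase of the plasma membrane, was 5.95, 6.10, 6.10 and 5.94 in treated mice, against 6.58, 6.99 and 7.63 in controls, and fell by 1.02 ± 0.20 (adjusted p = 0.00116). Vipr2, a receptor of vasoactive intestinal peptide, was 5.84, 5.37, 5.41 and 5.75 in treated mice, against 6.11, 6.34 and 6.66 in controls, and fell by 0.79 ± 0.14 (adjusted p = 0.000358). The 4 treated mice lay close together for Prmt8, while for Vipr2 they formed a lower pair (2-54 and 2-56) and a higher pair. Ttc7b, a scaffold of a phosphatidylinositol kinase complex, fell by 0.65 ± 0.10 (adjusted p = 5e-05), and its other probe set fell by 0.48 ± 0.09 on the log2 scale. Spock2, a lung proteoglycan, fell by 0.79 ± 0.17, Gm13889 by 0.73 ± 0.14, Lgi3, a secreted leucine-rich protein, by 0.66 ± 0.11, Raver1, an RNA-binding protein, by 0.63 ± 0.15, Klhl2 by 0.57, Nynrin by 0.55, Myzap by 0.54 ± 0.10 and Gprin3 by 0.88. Kif21a did not pass without 2-58 or without corn oil control 2-132 (adjusted p 0.0553 to 0.0994), nor did Spock2 without 2-54 (adjusted p 0.054). Klhl2 did not pass without 2-58 (adjusted p 0.0653), nor did Nynrin without 2-58 (adjusted p 0.0537). With the mean of all probe sets of a gene, Klhl2 changed by -0.31 (adjusted p = 0.281) and Gm13889 by -0.33 (adjusted p = 0.085). Gprin3 did not pass without 2-52, 2-54 or 2-58 or without corn oil control 2-59 (adjusted p 0.0512 to 0.137). With the RNA integrity number as a covariate Cfap54, Dsg2, Kif21a, Raver1, Nynrin, Gprin3 and Itgax did not pass.

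A direct contrast set 1,2-dibromoethane against coumarin, with the same vehicle and schedule, and asked where their lungs differ. Of 12735 genes 231 passed (1.81%), with 99 higher (0.777%) and 132 lower (1.04%) with 1,2-dibromoethane, of which 39 (0.306%) and 91 (0.715%) had no overlap between the groups. Of 14 carboxylesterase and lipase genes 4 were lower and 0 higher with 1,2-dibromoethane than with coumarin, with a median of -0.01, and the other 10 did not pass, among them Ces1f. Nqo1 was 7.51, 6.55, 6.32 and 6.51 with 1,2-dibromoethane, against 7.94 to 8.10 with coumarin, a difference of -1.29 ± 0.26 (adjusted p = 0.00506). Ces1g was 6.96 to 8.59 with 1,2-dibromoethane, against 8.59 to 9.81 with coumarin, a difference of -1.46 ± 0.32 (adjusted p = 0.00852). The protein-folding gene Agr2, active in goblet cells, was 4.71 to 6.22 with 1,2-dibromoethane, against 6.56 to 8.28 with coumarin (-2.13 ± 0.40), Serpind1, the heparin cofactor, 5.73 to 6.26 against 6.60 to 8.13 (-1.57 ± 0.19), the diamine oxidase Aoc1 7.08 to 8.07 against 8.33 to 9.18 (-1.41 ± 0.29) and Fetub, a fetuin, 6.11 to 7.12 against 7.54 to 8.38 (-1.31 ± 0.25). In each of these genes the 2 chemicals did not overlap, although for Ces1g the nearest mice almost met. Set against corn oil, Agr2, Serpind1 and Aoc1 did not pass with 1,2-dibromoethane (changes of 0.52, 0.11 and 0.45), while with coumarin they rose by 2.64, 1.67 and 1.86. Fetub rose by 0.76 with 1,2-dibromoethane (adjusted p = 0.0304) and by 2.07 with coumarin. Pon1, paraoxonase, was 11.49 to 11.68 with 1,2-dibromoethane, against 9.47 to 11.12 with coumarin, a difference of 0.99 ± 0.20. Trim30a, an interferon-induced gene, was higher by 1.20 with 1,2-dibromoethane and the integrin Itga4 by 1.09. Set against corn oil, Pon1, Trim30a and Itga4 did not pass with 1,2-dibromoethane (changes of 0.50, 0.73 and 0.60). Ces1g did not pass without 2-56 or without coumarin mouse 2-75 (adjusted p 0.066 to 0.0728), nor did Pon1 without coumarin mouse 2-75 (adjusted p 0.105). Trim30a did not pass without 2-54 or 2-56 or without coumarin mice 2-72 or 2-75 (adjusted p 0.0613 to 0.186), nor did Itga4 without 2-54 or without coumarin mice 2-72 or 2-75 (adjusted p 0.0693 to 0.314). Neither Trim30a nor Itga4 passed with the integrity covariate. The count of 231 was 525 without 2-52, 39 without 2-54, 59 without 2-56, 394 without 2-58, and 128, 44 and 479 without the coumarin mice 2-72, 2-75 and 2-76. Of the 39 ciliated cell markers 0 passed against coumarin, with a median difference of -0.01, and of the 29 NRF2 targets 5 were lower and 0 higher.

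Benzene differed from 1,2-dibromoethane at more genes. Of 12735 genes 1380 passed (10.8%), with 309 higher (2.43%) and 1071 lower (8.41%) with 1,2-dibromoethane, of which 212 (1.66%) and 629 (4.94%) had no overlap. The groups had a median difference of all genes of -0.06. Pnliprp1 was 6.51, 6.53, 6.07 and 5.70 with 1,2-dibromoethane, against 4.91 to 5.13 with benzene, a difference of 1.18 ± 0.20 (adjusted p = 0.000161), and Ces1g was 6.96 to 8.59 against 6.36 to 6.65, a difference of 1.18 ± 0.32 (adjusted p = 0.0152). Eln was 8.40 to 9.80 with 1,2-dibromoethane, against 9.83 to 10.39 with benzene (-1.13 ± 0.26, adjusted p = 0.00554), and Cdh16, a kidney and lung cadherin, was 5.78 to 7.19 against 7.41 to 8.10 (-1.04 ± 0.21). Tubb2b, a beta tubulin, was 4.41 to 5.01 with 1,2-dibromoethane, against 5.37 to 5.87 with benzene, and Zfp365 was 5.30 to 6.46 against 6.49 to 7.29. These genes did not overlap between the chemicals. Set against corn oil, Tubb2b and Zfp365 did not pass with 1,2-dibromoethane (-0.46 and -0.47, adjusted p 0.212 and 0.105) or with benzene (0.48 and 0.46). Of the 39 ciliated cell markers 10 were higher and 0 lower with 1,2-dibromoethane, with a median of 0.40, and of the 28 collagen genes 8 were lower and 0 higher, with a median of -0.33. Retnla, a resistin-like protein of allergic and repair responses, was 10.83 to 11.60 with 1,2-dibromoethane, against 8.33 to 10.83 with benzene (1.52 ± 0.51). Its change from corn oil with 1,2-dibromoethane was 1.40 and did not pass (adjusted p = 0.0502). Ces1g did not pass without 2-52 (adjusted p 0.0788), nor did Retnla without 2-52, 2-54 or 2-58 or without benzene mice 2-85 or 2-90 (adjusted p 0.0545 to 0.219). With the integrity covariate Ces1g, Retnla and Cdh16 did not pass. The count of 1380 was 817 without 2-54, 853 without 2-58, and 782, 746 and 391 without the benzene mice 2-85, 2-86 and 2-90.

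Against 2,2-bis(bromomethyl)-1,3-propanediol, each chemical was first set against its own vehicle controls, since route and vehicle differ, and doses are in different units. Of 12735 genes the change differed for 361 (2.83%), with 172 more positive (1.35%) and 189 more negative (1.48%) with 1,2-dibromoethane. Ces1f changed by 1.82 with 1,2-dibromoethane and by -0.10 with the propanediol, a difference of 1.92 ± 0.32 (adjusted p = 0.00144), and Pnliprp1 by 1.45 and -0.08, a difference of 1.52 ± 0.26 (adjusted p = 0.00144). For Ces1g the changes were 2.13 and 1.30, and the difference of 0.83 (-0.01 to 1.68) did not pass. Tbx2, a T-box factor, changed by -0.64 with 1,2-dibromoethane and by 0.48 with the propanediol (-1.12 ± 0.24, adjusted p = 0.0149). Of the 39 ciliated cell markers 11 differed towards 1,2-dibromoethane and 0 the other way, with a median of 0.64. Of the 29 NRF2 targets 0 differed, with a median of 0.06, while 4 of 20 glutathione S-transferases did, all more positive with 1,2-dibromoethane. Cirbp, a cold-inducible RNA-binding protein, changed by -0.01 with 1,2-dibromoethane and by 1.69 with the propanediol, a difference of -1.69. Tbx2 did not pass without feed control 2-42 (adjusted p 0.0758), nor did Cirbp without 2-54 or 2-56, propanediol mice 2-2, 2-6 or 2-10, feed controls 2-42 or 2-43 or without corn oil controls 2-59, 2-93 or 2-132 (adjusted p 0.0506 to 0.0988). Without the feed control 2-42 only 14 genes differed, and without the propanediol mouse 2-10 there were 17. None of the differences named here passed with the RNA integrity number as a covariate, where 3 of these 8 feed arrays had none.

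Changes from corn oil can also be set side by side for the gavage chemicals, which share the 8 controls, so that no correlation or overlap is read from them. Ces1g changed by 2.13 with 1,2-dibromoethane, 3.59 with coumarin and 0.95 with benzene, and Ces1f by 1.82, 1.65 and 1.18. Gpx2 changed by 0.99, 1.50 and 0.15, Gstm1 by 0.49, 0.60 and -0.08 and Ephx1 by 0.46, 0.45 and 0.66, in the same order. Eln changed by -1.35, -1.02 and -0.21, Npr1 by -0.94, -0.63 and -0.10 and Dynlrb2 by 0.73, 0.71 and -0.21. Prmt8 changed by -1.02, 0.05 and -0.06, Vipr2 by -0.79, -0.10 and 0.04 and Siglecf by -1.07, -0.09 and -0.01.

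Genes at which 1,2-dibromoethane passed the test, in 1 direction, against corn oil, coumarin and benzene alike numbered 49 (19 higher and 30 lower). All 3 contrasts share the 4 treated arrays, so their joint passing is not independent evidence. Of the 49 genes 19 also differed from the propanediol in the same direction, while 2.83% of all genes differed in that contrast in either direction. It holds the same treated and corn oil arrays that selected the 49, so this count is not independent evidence either. The genes described here were chosen from the 49 after their values were seen. Prmt8 was 5.94 to 6.10 with 1,2-dibromoethane, against 6.86 to 7.32 with coumarin, 6.75 to 7.34 with benzene and 6.58 to 7.63 with corn oil, and its differences were -1.07, -0.96 and -1.02. Vipr2 was 5.37 to 5.84 with 1,2-dibromoethane, against 6.14 to 6.44, 6.12 to 6.59 and 6.11 to 6.66 in the same 3 groups, with differences of -0.68, -0.82 and -0.79. Neither gene overlapped with any of the 3 groups. Lgi3 was 9.22 to 9.74 with 1,2-dibromoethane, against 9.99 to 10.20 with coumarin, 10.02 to 10.75 with benzene and 9.76 to 10.53 with corn oil. Cited2, a coactivator that competes for CBP and p300, was 9.24 to 9.91 with 1,2-dibromoethane, against 10.12 to 10.28 with coumarin, 10.09 to 10.35 with benzene and 9.81 to 10.43 with corn oil. It overlapped with the lowest corn oil control and not with the other groups. Cited2 and Prmt8 passed in the contrasts with corn oil, coumarin and benzene whichever mouse was left out. Vipr2 did not pass without 2-54 or 2-56 or without coumarin mouse 2-75 (adjusted p 0.0674 to 0.117), nor did Lgi3 without 2-54 or without coumarin mouse 2-75 (adjusted p 0.0639 to 0.144).

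On the higher side, Jarid2, a partner of the polycomb repressive complex, was 7.91, 8.32, 8.39 and 7.90 with 1,2-dibromoethane, against 7.34 to 7.84 with coumarin, 7.51 to 7.81 with benzene and 7.20 to 7.87 with corn oil, a change from corn oil of 0.54 ± 0.11 (adjusted p = 0.00271). Mak, a kinase that controls cilium length, was 7.83, 7.88, 8.28 and 7.75 with 1,2-dibromoethane, against 6.82 to 7.65 with coumarin, 7.06 to 7.32 with benzene and 6.88 to 7.50 with corn oil, a change of 0.78 ± 0.14 (adjusted p = 0.000816). The gene AY036118 was 11.08, 10.73, 10.86 and 10.85 with 1,2-dibromoethane, against 10.28 to 10.41 with coumarin, 9.90 to 10.27 with benzene and 9.88 to 10.57 with corn oil, a change of 0.57 ± 0.10 (adjusted p = 0.000304). Diras2, a Ras-like GTPase, was 8.45, 8.58, 8.34 and 8.03 with 1,2-dibromoethane, against 7.49 to 7.99, 7.62 to 8.11 and 7.35 to 8.08 in the same order of groups. Jarid2, Mak and AY036118 had all 4 treated mice above every mouse of the 3 other groups, and Diras2 overlapped with benzene and corn oil through 2-58. In the contrast with coumarin calls depended on single mice. Jarid2 did not pass without 2-54 or 2-56 or without coumarin mice 2-72 or 2-75 (adjusted p 0.0566 to 0.128), nor did Mak without 2-54 or 2-56 or without coumarin mice 2-72 or 2-75 (adjusted p 0.0774 to 0.234). Diras2 did not pass without 2-52, 2-54 or 2-56 or without coumarin mice 2-72 or 2-75 (adjusted p 0.0536 to 0.198). In the contrast with benzene they did for Jarid2 and Diras2. Jarid2 did not pass without 2-54 (adjusted p 0.0514), nor did Diras2 without 2-52 or 2-54 or without benzene mice 2-85, 2-86 or 2-90 (adjusted p 0.0528 to 0.093). In the fit with the integrity covariate Jarid2 did not pass against corn oil or benzene (adjusted p 0.0767 and 0.132), Mak did not against coumarin or benzene (adjusted p 0.0941 and 0.0667), and Diras2 did not against any of the 3 groups (adjusted p 0.0503 to 0.102).

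**Figure D5:**
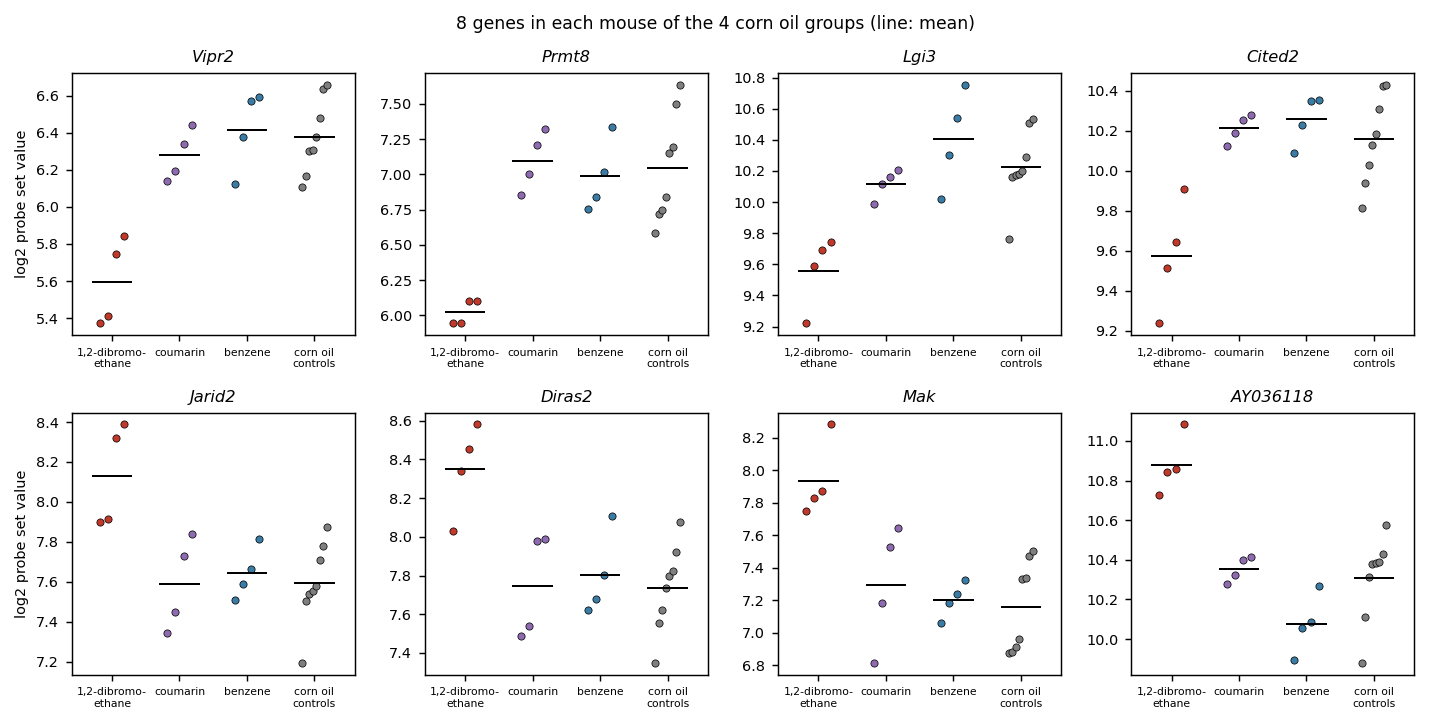
Log2 probe set values of 8 genes in each mouse of the 1,2-dibromoethane, coumarin, benzene and corn oil groups (4, 4, 4 and 8 mice, left to right), with a line at the group mean. Vipr2, Prmt8, Lgi3 and Cited2 are low and Jarid2, Diras2, Mak and AY036118 high with 1,2-dibromoethane.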

How the data were processed

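Right lung lobes were measured on 1 Affymetrix mouse whole-genome array per mouse, with groups taken from the array titles. The authors deposited log2 values per probe set, between 2.47 and 14.5, with array medians of 5.41 to 5.52; their summarization and normalization are not given in the sources used here. No 2 arrays were identical (highest correlation 0.997). Of 45101 probe sets 64 controls were left out; 34945 had 1 gene symbol, 932 several and 9160 none, and symbols were updated by Entrez identifier through RefSeq (GRCm38.p6) for 34741.

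The probe set with the highest mean stood for each gene, and the 12735 of 18193 genes above the 30th percentile of means (log2 4.98) were tested with limma 3.58.1 (R 4.3.3), a mean per group over all 70 arrays in 18 groups, empirical Bayes moderation and Benjamini-Hochberg adjustment at 0.05. The median residual SD was 0.193 with 52 residual degrees of freedom. With the 12 arrays alone it was 0.233 with 10. Within groups the median SD was 0.193 in treated mice and 0.235 in corn oil controls. For the median gene the adjusted p-values thus rest on a smaller spread than that of the 12 arrays compared. Intervals are 95%, and the number of arrays limits the precision. Labels give separate animals, and the p-values measure the spread between them, pooled over all 18 groups. Single values were compared with an exact permutation test. The steps were tested on simulated data. Figures used Python 3.11.15, pandas 2.3.3 and matplotlib 3.10.9.

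The genes named are the 15 largest rises and 15 largest falls with no overlap, up to 5 called members per list and direction, a panel of metabolism, damage and marker genes whether called or not, and up to 6 genes per direction in the other contrasts; others are said to be singled out. The members and lists were chosen with earlier results of these data known. Alternatives covered the filter, probe sets, normalization, arrays fitted, variance model, array weights, RNA quality covariates and each mouse left out.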

Additional observations from a re-analysis of the deposited data

Results flagged for a closer look

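Among treated mice, 2-56 stood apart from the other 3 in the 3' minus 5' difference of its control probe sets, at 0.989, against 0.135 to 0.254. Kif21a of mouse 2-58 was 8.03, against 7.612 to 7.627 in the other treated mice. Gprc5a of mouse 2-54 was 11.505, against 12.264 to 12.317. Among controls, mouse 2-99 had the highest 3' minus 5' difference (0.339), 2-59 the highest Ces1g (6.461), 2-60 the lowest Sptssb (4.704), 2-134 stood apart for Muc5ac (5.719), 2-60 for Cckar (8.802) and 2-132 for Vegfa (10.193). Each of these 9 gaps was above Dixon's critical value for its group, out of 228 groups tested, and chance passes it in about 1 in 20 groups.

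The change with 1,2-dibromoethane differed from that with 2,2-bis(bromomethyl)-1,3-propanediol, each against its own controls, by limma's test of the difference. More positive with 1,2-dibromoethane were the esterase Ces1f (by 1.922), Pnliprp1 (1.522), Acsm1 (1.189) and Acox2 (0.703) of lipid metabolism, Fam81a (1.3), Dsg2 (0.996), the cilium genes Cfap54 (1.388), Enkur (1.68) and Efcab1 (1.496), Fam216b (1.496) and Cp, ceruloplasmin (1.54). More negative were Eln (-1.245), Vipr2 (-0.801), Gm13889 (-1.093), Lgi3 (-0.693), Ttc7b (-0.655), Raver1 (-0.815), Klhl2 (-0.839), Myzap (-0.897), Cirbp (-1.694), Gas1 (-1.144), Tbx2 (-1.124) and Arrdc2 (-1.101). Of these 23 calls 18 were lost without feed control 2-42, 17 without propanediol mouse 2-10, 14 without propanediol mouse 2-2, 11 without treated mouse 2-54, 11 without feed control 2-43, 10 without corn oil control 2-132 and at most 9 without any other mouse. Those of Ces1f, Pnliprp1, Fam81a, Gm13889 and Myzap held without any 1 mouse. With only the arrays of set 2 there were 13 losses, and with the RNA integrity covariate the Myzap call alone passed. Route, vehicle and days per week cannot be told apart from the chemical in these differences. The amount to core in the labels differed as well. It was 10 for the propanediol arrays, 10 or 15 for the feed controls and 15 for the 1,2-dibromoethane and corn oil arrays, and its part was not tested.

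Probe sets with no gene symbol or with several were tested on their own, and 47 of 3650 passed (1.29%), 30 higher and 17 lower in treated lungs.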

How the results depend on the processing

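No paired analysis was possible because each animal number occurs once. Against corn oil, 584 genes passed, and 12 did with only the arrays compared and 195 with the RNA integrity covariate (175 of them among the 584); the others gave 506 to 663 (595 with a percentile over all probe sets, chosen after seeing the data). Array weights called 176 higher and 424 lower, the 3' minus 5' covariate 241 and 422, and quantile normalization 317 and 314, against 265 and 319. Leaving out 1 mouse gave 358 (without 2-58) to 810 (without control 2-60). Of the 96 genes named and called, 11 passed in every alternative, 85 missed the threshold with the 12 arrays alone and 48 with the integrity covariate, and none of the 96 changed direction. With the mean of all probe sets of a gene 20 missed the threshold, among them Adh7, Fmo5, Fanca, Emp2 and Usp2. Against coumarin, 231 genes became 0 with only the arrays compared (1175 at an unadjusted p under 0.05), 149 with set 2, 31 with array weights and 109 with the integrity covariate, and 39 to 525 with 1 mouse left out. Against benzene, 1380 became 762 with quantile normalization, 0 with only the arrays compared (2473 unadjusted), 3018 with array weights and 362 with the integrity covariate, and 391 to 1958 with 1 mouse left out. For the propanediol, 361 became 12 with only the arrays compared, 139 with set 2, 2333 with array weights and 1 with the integrity covariate, and 14 to 925 with 1 mouse left out. The cause of these moves was not tested.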

Other observations

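The heat shock, ER stress and interferon lists showed no called genes: 0 of 18 heat shock chaperones (median -0.00), 0 of 29 genes of ER stress and the amino acid response (median -0.12) and 0 of 23 interferon genes (median 0.32) passed in limma. The lists that follow had 8% to 11.1% lower, against 2.5% of all genes. Of 25 genes of cholesterol and fatty acid synthesis 2 fell, Acly, which makes cytosolic acetyl-CoA (by 0.24), and Fdps, which makes farnesyl diphosphate (by 0.47). Of 24 genes of fatty acid oxidation 2 fell, Angptl4 and the thioesterase Acot1 (by 0.57), and of 23 immediate early genes 2 fell, Dusp1 and Egr2 (by 0.54). Of 18 cytokine and chemokine genes 2 fell, Tgfb1 (by 0.60) and Cxcl14 (by 0.75). With the RNA integrity number as a covariate Angptl4 alone of these 8 calls passed. Acly did not pass without 2-54 or 2-56 (adjusted p 0.0702 to 0.113), nor did Fdps without 2-54 or 2-56 or without corn oil controls 2-59, 2-93 or 2-132 (adjusted p 0.0544 to 0.433). Acot1 did not pass without 2-54 or 2-56 or without corn oil controls 2-97 or 2-132 (adjusted p 0.0584 to 0.121), nor did Egr2 without 2-54 or 2-56 or without corn oil controls 2-97 or 2-132 (adjusted p 0.0509 to 0.168). Tgfb1 did not pass without 2-56 (adjusted p 0.0753), nor did Cxcl14 without 2-54 (adjusted p 0.113). With the mean of all probe sets of a gene Acly, Fdps, Dusp1, Egr2, Tgfb1 and Cxcl14 did not pass (adjusted p 0.0502 to 0.567). None of the 3 eosinophil and mast cell, 6 cartilage, 7 skeletal muscle and fat or 7 erythroid markers passed.

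Msln, mesothelin of the pleural lining, singled out after its values were seen, was 7.43, 4.82, 7.67 and 8.96 in treated mice, against 7.83 to 9.37 in controls, a change of -1.35 ± 0.40 (adjusted p = 0.0367). Mouse 2-54 lay about 3 units below the lowest control, and this is the mouse whose neutrophil markers were highest. Without 2-54 the change was -0.55 and did not pass (adjusted p = 0.438), and the call was also lost without 2-52 or without corn oil controls 2-59, 2-97 or 2-132 (adjusted p 0.0509 to 0.0684).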
